A study of Homo sapiens with 11 samples.

Results

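The proteasome subunit genes described here were the protein-coding genes of the count tables on chromosomes 1 to 20 whose GENCODE symbol is PSMA, PSMB, PSMC, PSMD, PSME, PSMF or PSMG followed by digits. The rule found 43 genes among the 21300 identifiers placed on these chromosomes, of 23167 in the tables, and 40 of the 43 passed the filter on low counts, as did 10943 genes in all. RNA-seq was made from MDA-MB-231 cells, an established human triple-negative breast cancer (TNBC) line, in 2 WT and 2 mH2A1.1 KD libraries collected on day 3. The KD cells received siRNA against mH2A1.1 at 11 nM, and the WT cells received the transfection reagent INTERFERin and no siRNA, so the groups differ by the presence of any siRNA as well as by its target. WT cells also gave 1 ChIP-seq library each for mH2A1.1, a splice isoform of the histone variant macroH2A1, and for total mH2A1. PSMB3, PSMB8 and PSMB9 are not analysed here.

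The proteasome is the cell's main machine for degrading proteins tagged with ubiquitin. Its 20S core is a barrel of stacked rings, in which alpha subunits form the gate and beta subunits line the chamber that holds the proteolytic sites. The 19S regulatory particle caps the barrel; its ATPases unfold the substrate, and its other subunits bind and remove ubiquitin. Other activators (PSME genes), an inhibitor (PSMF1) and chaperones that build the particles act on the same core. When proteasome activity is short, the transcription factor NFE2L1, freed from the endoplasmic reticulum with the help of the p97 segregase, raises many subunit genes together through antioxidant response elements.

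The libraries held 9794674 and 7856892 counts in WT and 5584962 and 2309549 in KD, so KD replicate 2 was the shallowest. This library had 0 counts in 658 of 659 genes of chromosomes 21, 22 and X that held at least 30 counts in each other library, and the tests therefore used chromosomes 1 to 20. MACROH2A1 stood at 385 and 394 CPM (counts scaled to 1000000 per library, with TMM factors) in WT and at 274 and 301 CPM in KD, with both isoforms counted together (edgeR log2 fold change -0.44 ± 0.17 SE, adjusted p = 0.204). The line's markers VIM, CD44, EGFR and KRT18 were each above 300 CPM in every library, ESR1 and PGR were listed at 0, and EPCAM and CDH1 were at most 24.2 CPM. ERBB2, also listed among genes absent or low in this line, stood higher, at 80.1 and 80.3 CPM in WT and at 87.0 and 128 CPM in KD (edgeR log2 fold change 0.41 ± 0.23 SE, adjusted p = 0.287). Of markers of other cells, the fibroblast gene COL1A1 stood at 9.69 and 8.69 CPM in WT and at 18.4 and 33.1 CPM in KD, and the endothelial gene PECAM1 at 3.06 and 3.42 CPM in WT and at 5.49 and 4.26 CPM in KD; their part in the results was not tested. Nothing in the labels says that libraries of a group came from separate cultures, so p-values measure the spread between these libraries only.

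In WT cells the subunit genes formed an abundant group. Their median level was 27.9 CPM per kb of summed exon length, against 6.97 CPM per kb over all genes tested. The highest was PSMD2 (130 ± 12.8 CPM per kb, SD, n = 2), a large scaffold subunit of the 19S base. PSMA7 followed at 96.5 ± 6.32 CPM per kb, and the ATPase PSMC3 at 87.6 ± 3.65 CPM per kb. Levels of the 6 constitutive beta subunits ran from 42.0 CPM per kb for PSMB2 to 76.9 CPM per kb for PSMB4. The alpha subunits, which stand in equal numbers in the assembled ring, ranged more widely, from 0.913 to 96.5 CPM per kb. Per kb of the longest transcript the beta levels ran from 43.0 CPM for PSMB2 to 131 CPM for PSMB7. On that scale PSMB7 exceeded PSMC3 (126 CPM).

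The 3 lowest levels were those of PSMA2 (0.913 ± 0.113 CPM per kb), PSMA6 (0.947 ± 0.0343 CPM per kb) and PSMD9 (0.989 ± 0.0616 CPM per kb). PSMA2, PSMA6, PSMB10 and PSMD9 are each overlapped over more than 50% of their length by another annotated protein-coding gene on the same strand, none of which had a row in the tables. Their total counts over the 4 libraries were between 70 and 195, against 229 to 17769 for the other 36 members. By default htseq-count discards a read that fits more than 1 gene, and the part of this in the low values was not tested. PSMC1 and PSME2 have 13 and 6 annotated pseudogenes, none with a row in the tables, so reads that fit a copy make their levels uncertain. PSMA1, at 3.35 ± 0.0915 CPM per kb, shares 814 exon bases with a same-strand protein-coding gene that had no row in the tables. PSMC4, an essential 19S ATPase, the testis subunit PSMA8 and the thymus subunit PSMB11 were listed at 0 in all 4 libraries. Why PSMC4 was listed at 0 is not known, and this value need not mean that its RNA was absent. A count of 0 allows up to 3 counts, which is 0.316 CPM in WT replicate 1 and 1.42 CPM in KD replicate 2, for counting error only.

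**Figure D1:**
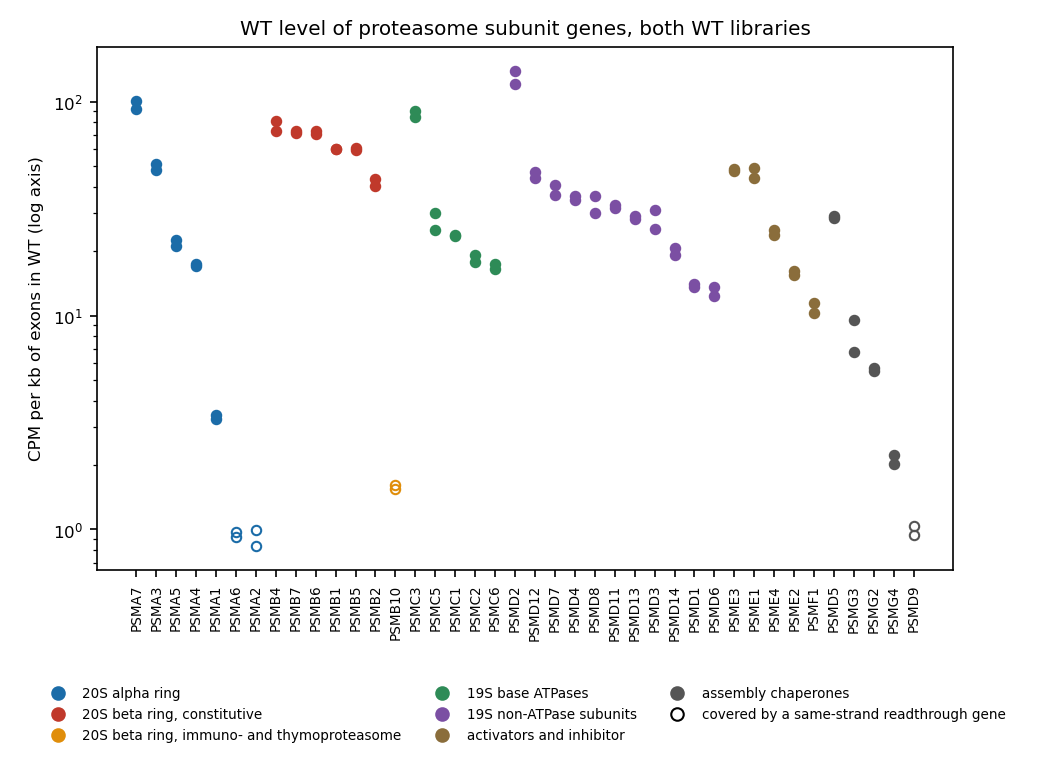
WT level of the 40 members that passed the filter, in CPM per kb of summed exon length (vertical log axis), with both WT libraries as points, ordered by role and then level. Open points are the 4 members overlapped by a same-strand protein-coding gene, all between 0.8 and 1.7 CPM per kb, and PSMD2 is the highest at 130 CPM per kb.

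More subunit genes had higher than lower values in mH2A1.1 KD cells, among them the whole measured constitutive beta ring, but the edgeR test called none of them. Fitted log2 fold changes (KD over WT) of the 40 members ran from -0.69 to 1.195 with a median of 0.263, against a median of 0.008 over all 10943 genes. The median ratio to WT was 0.127 in KD replicate 1 and 0.375 in KD replicate 2 on the log2 scale, and 24 of 40 fitted values were above 0 (50.6% of all genes). Both KD values exceeded both WT values in 22 members (55%), where 32.5% of all genes did so, and both lay under the WT values in 11 members (27.5%), where 32.4% did so. Before any correction for base composition, subunits of 1 particle thus lay on both sides of WT. The share of members below WT, 27.5%, was near the 32.4% of all genes. In these bulk libraries, fewer cells that express a gene and less RNA per cell cannot be told apart.

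With an adjusted p threshold of 0.1 and fold changes beyond 1.5, edgeR called 0 of 40 members higher and 0 lower, and also 0 of all 10943 genes (0%) in either direction. At an unadjusted p under 0.05, 10 members were higher (25%; 11.8% of all genes) and 0 were lower (11.4% of all genes). DESeq2, the tool the authors used, called 3 of the 35 members that kept an adjusted p higher and 0 lower, where it called 5.57% of all genes higher and 5.78% lower. These 3 were PSMG4, PSMD4 and PSMC3.

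The 2 KD libraries differed in how far they stood from WT. In 36 of 40 members (90%), KD replicate 2 lay on the same side of the WT mean as KD replicate 1 and farther from it, as in 63.3% of all genes. The median absolute log2 difference between the KD libraries over members was 0.442, and between the WT libraries 0.086. Without KD replicate 2 the median log2 fold change of members was 0.134, and without KD replicate 1 it was 0.365.

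**Figure D2:**
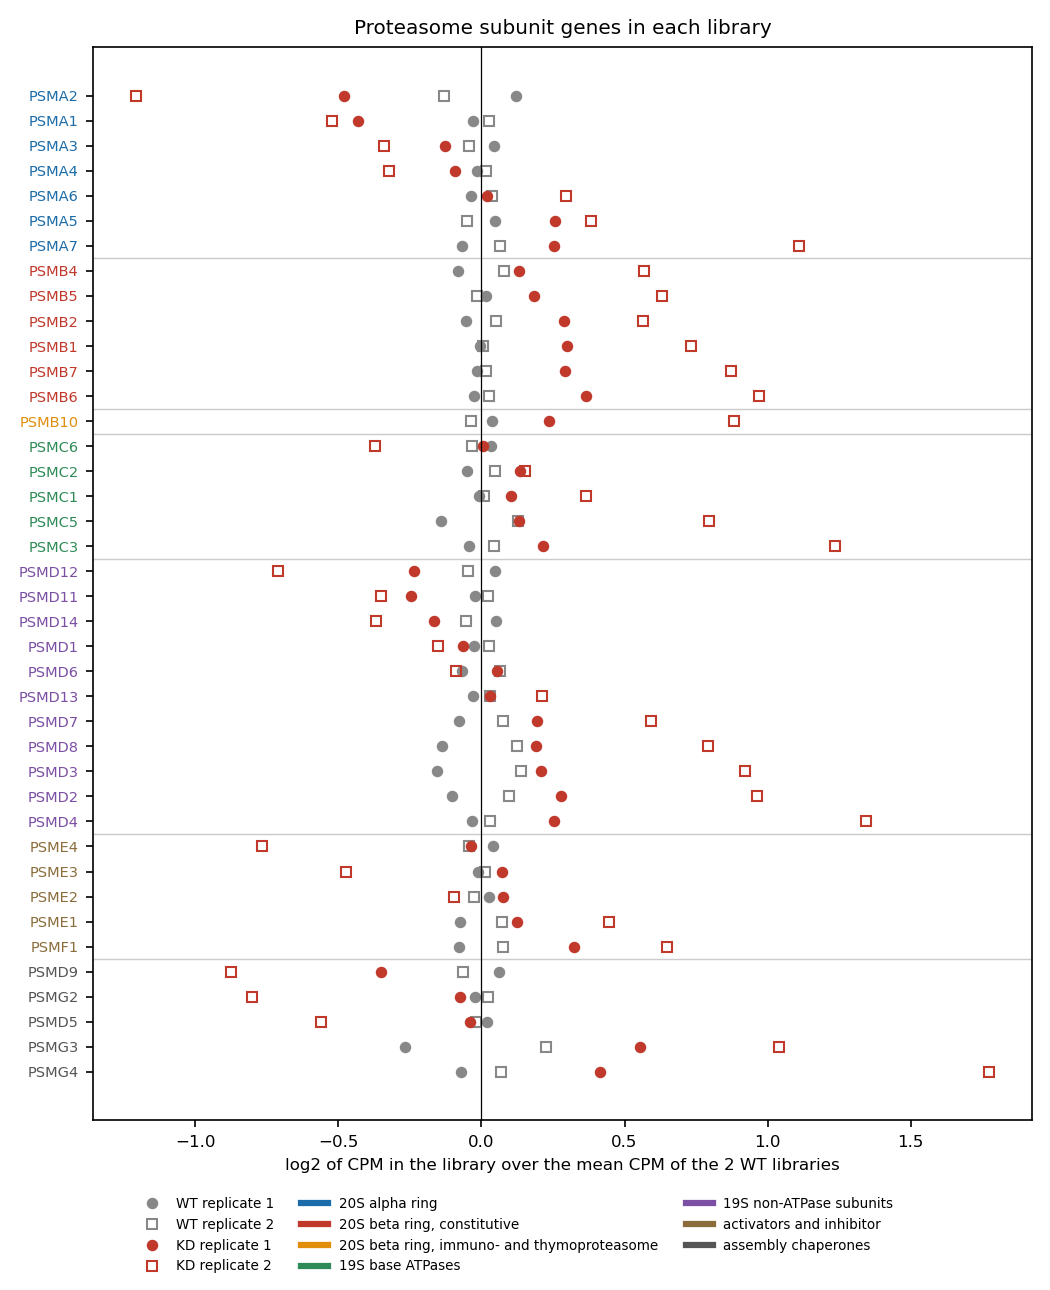
Log2 ratio of the CPM in each library to the mean CPM of both WT libraries (horizontal axis) for the 40 members, grouped by role, with WT in grey, KD in red, replicate 1 as filled circles and replicate 2 as open squares. All 6 constitutive beta genes have both KD points to the right of both WT points, and KD replicate 2 lies beyond KD replicate 1 on the same side in 36 of 40 genes.

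The constitutive beta ring was uniform in direction. All 6 measured genes had both KD values above both WT values, as did 32.5% of all genes. Their median log2 fold change was 0.478, with a range of 0.362 to 0.692. PSMB5, PSMB6 and PSMB7 encode the proteolytic sites. PSMB6, the caspase-like subunit, stood at 102 and 106 CPM in WT and at 134 and 204 CPM in KD (0.69 ± 0.24 SE, edgeR adjusted p = 0.193). PSMB7, the trypsin-like subunit, stood at 128 and 131 CPM in WT and at 158 and 237 CPM in KD (0.60 ± 0.23 SE, edgeR adjusted p = 0.199). PSMB5, the chymotrypsin-like subunit that bortezomib binds, stood at 93.9 and 91.9 CPM in WT and at 106 and 144 CPM in KD (0.42 ± 0.21 SE, edgeR adjusted p = 0.256).

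The structural beta genes had the same pattern without overlap. PSMB1 stood at 133 and 134 CPM in WT and at 164 and 222 CPM in KD, with a log2 fold change of 0.53 ± 0.21 SE. PSMB2 stood at 183 and 197 CPM in WT and at 232 and 281 CPM in KD (0.43 ± 0.19 SE). PSMB4 had the smallest difference of the ring, at 0.36 ± 0.21 SE.

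PSMB10 replaces PSMB7 in the immunoproteasome, the form that interferon induces. It was barely detected, at 2.63 and 2.5 CPM in WT and at 3.03 and 4.73 CPM in KD (0.48 ± 0.37 SE, edgeR adjusted p = 0.432). Its level per kb was 0.0226 and 0.021 of that of PSMB7 in WT and 0.021 and 0.022 of it in KD. Without correction for base composition, the ratio was thus alike in all 4 libraries, on 25, 19, 16 and 10 counts of PSMB10. PSMB10 is also among the genes overlapped by another gene.

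The alpha genes lay on both sides of WT. Their median log2 fold change was -0.198 over 7 genes. In both KD libraries 2 genes were above WT and 4 below, beside 32.5% and 32.4% of all genes. PSMA7 stood at 161 and 177 CPM in WT and at 202 and 365 CPM in KD (0.74 ± 0.29 SE, edgeR adjusted p = 0.204). PSMA5 stood at 130 and 121 CPM in WT and at 150 and 164 CPM in KD (0.32 ± 0.17 SE). PSMA2 had the most negative fold change of all members, on 79 and 53 counts in WT and 29 and 7 in KD (-0.69 ± 0.32 SE, edgeR adjusted p = 0.236). PSMA1, at 10.0 and 10.4 CPM in WT and 7.57 and 7.10 CPM in KD, was next in the ring (-0.46 ± 0.25 SE, edgeR adjusted p = 0.283). PSMA3 and PSMA4 lay below WT by smaller differences (-0.23 ± 0.18 and -0.20 ± 0.18 SE), and PSMA6 overlapped WT.

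The 19S ATPases, which form the ring that unfolds substrates, had a median log2 fold change of 0.238 over 5 genes. PSMC3 stood at 193 and 205 CPM in WT and at 231 and 469 CPM in KD (0.81 ± 0.32 SE, edgeR adjusted p = 0.206, DESeq2 adjusted p = 0.0933). PSMC5, PSMC1 and PSMC2 also had both KD values above both WT values, by 0.49 ± 0.26, 0.24 ± 0.18 and 0.15 ± 0.17 SE on the log2 scale. PSMC6 overlapped WT at -0.16 ± 0.20 SE.

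The 11 non-ATPase subunits of the 19S particle had a median of 0.119. Of these, 5 stood above WT in both KD libraries and 4 below, beside 32.5% and 32.4% of all genes. PSMD4, a ubiquitin receptor, stood at 105 and 110 CPM in WT and at 128 and 272 CPM in KD (0.89 ± 0.34 SE, edgeR adjusted p = 0.199, DESeq2 adjusted p = 0.0755). PSMD2 stood at 602 and 692 CPM in WT and at 784 and 1261 CPM in KD (0.66 ± 0.26 SE, edgeR adjusted p = 0.204). PSMD3, PSMD8 and PSMD7 were the others above WT, by 0.60 ± 0.27, 0.52 ± 0.24 and 0.40 ± 0.20 SE.

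PSMD12, a lid subunit, stood at 251 and 235 CPM in WT and at 207 and 149 CPM in KD (-0.45 ± 0.21 SE, edgeR adjusted p = 0.242). PSMD11, PSMD14 and PSMD1 were also below WT in both KD libraries, by -0.30 ± 0.17, -0.26 ± 0.18 and -0.11 ± 0.17 SE. PSMD14 is the deubiquitinase of the lid. PSMD13 and PSMD6 overlapped WT, at 0.12 ± 0.18 and -0.01 ± 0.18 SE.

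The assembly chaperones lay on both sides of WT, with 2 genes above it in both KD libraries and 3 below. Over all genes, 32.5% lay above and 32.4% below. PSMG3 and PSMG4 form a pair that helps to build the alpha ring. PSMG4 had the largest fold change of all members, at 21.1 and 23.2 CPM in WT and at 29.5 and 75.7 CPM in KD (1.195 ± 0.413 SE, edgeR adjusted p = 0.193, DESeq2 adjusted p = 0.0428). PSMG3 stood at 13.4 and 18.8 CPM in WT and at 23.7 and 33.1 CPM in KD (0.79 ± 0.28 SE, edgeR adjusted p = 0.193). Both genes cleared the WT range in both KD libraries. PSMG4 shares 1388 exon bases with SLC22A23, a counted gene on the other strand, and the part of this in its values was not tested.

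PSMG2, which works at the same step, PSMD5 and PSMD9, chaperones of the 19S base, were below WT in both KD libraries. PSMD9 stood at 9.06 and 8.30 CPM in WT and at 6.81 and 4.73 CPM in KD (-0.52 ± 0.29 SE, edgeR adjusted p = 0.292). PSMG2 stood at 69.0 and 71.2 CPM in WT and at 66.6 and 40.2 CPM in KD (-0.36 ± 0.25 SE, edgeR adjusted p = 0.382). PSMD5 differed by -0.27 ± 0.22 SE, most of it in KD replicate 2.

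Among the activators, PSME1 (0.29 ± 0.19 SE) had both KD values above WT, while PSME2, its partner in the interferon-induced cap, overlapped WT at 0.00 ± 0.18 SE. The nuclear activators PSME3 and PSME4 overlapped WT, at -0.17 ± 0.22 and -0.35 ± 0.26 SE, and their low value was that of KD replicate 2 only. PSMF1, which encodes the inhibitor PI31, stood at 107 and 119 CPM in WT and at 141 and 177 CPM in KD (0.49 ± 0.20 SE, edgeR adjusted p = 0.206).

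Differences between libraries followed the base composition of the genes. Across the 40 members, the log2 fold change correlated with exon GC content at a Pearson's r of 0.646 and a Spearman's rho of 0.665, and across all 10943 genes, from the same libraries, at 0.628 and 0.671. The alpha genes had a median exon GC content of 39.7% and the constitutive beta genes 48.0%, so these roles also differed in base composition. Medians of other roles did not rise with GC content. The 19S ATPases had 46.1% GC and a median log2 fold change of 0.238, the assembly chaperones 49.3% and -0.265. The activators and inhibitor had 50.7% and -0.001. The chaperones' medians come from different genes, PSMD9 (49.3% GC, log2 fold change -0.515) and PSMD5 (40%, -0.265). Of the other chaperones, PSMG3 (59.6%, 0.79) and PSMG4 (51%, 1.195) were above 0 and PSMG2 (43.9%, -0.364) below. Genes share the libraries and are not independent replicates.

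Passing smooth trends of each library on GC content and gene length to the fit as offsets left the median of members at 0.284, with 31 of 40 values above 0, and r at -0.109. In this fit edgeR called 4 of 40 members higher (10%), where 2.23% of all genes were called higher, and 0 lower, where 3.34% were. The genes called were PSMA5, PSMB1, PSMB2 and PSMC2, none of which DESeq2 had called without offsets. Offset-adjusted values of PSMA5 were 105 and 106 CPM in WT and 149 and 233 CPM in KD (0.82 ± 0.18 SE, edgeR adjusted p = 0.0534). Those of PSMC2 were 124 and 144 CPM in WT and 175 and 254 CPM in KD (0.65 ± 0.17 SE, edgeR adjusted p = 0.0733). PSMB1 and PSMB2 had log2 fold changes of 0.77 ± 0.20 and 0.61 ± 0.16 SE, with edgeR adjusted p of 0.0729 and 0.0732.

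DESeq2, with GC and length offsets fitted for it, called 6 of 35 members higher and none lower. These were the same 4 genes with PSMD4 and PSMG4. It called 2.7% of all genes higher and 2.84% lower. After offsets, both KD values exceeded both WT values in 24 members and lay below them in 6, beside 29.9% of all genes in each direction. The direction of 11 members changed with the offsets, 9 of them from negative to positive, among them PSMA3, PSMA4, PSMC6, PSMD12 and PSMD14. In the constitutive beta ring both KD values exceeded both WT values in 5 of 6 genes after offsets. The exception was PSMB5, at 108 and 99.9 CPM in WT and 106.5 and 114 CPM in KD, whose log2 fold change fell to 0.08 ± 0.10 SE. The ring's fitted values were above 0 in 6 of 6 genes with a median of 0.386, the alpha ring's median became 0.252, and PSMB10 was at -0.01. Offset-adjusted PSMB10 stood at 3.336 and 2.912 CPM in WT and at 3.175 and 3.041 CPM in KD. PSMB7 stood at 136.1 and 134.8 CPM in WT and at 157.3 and 218.1 CPM in KD. On these values the ratio of PSMB10 to PSMB7 was lower in both KD libraries than in WT, on few counts. PSMA2 and PSMD9 were still below 0, at -0.24 and -0.60.

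**Figure D3:**
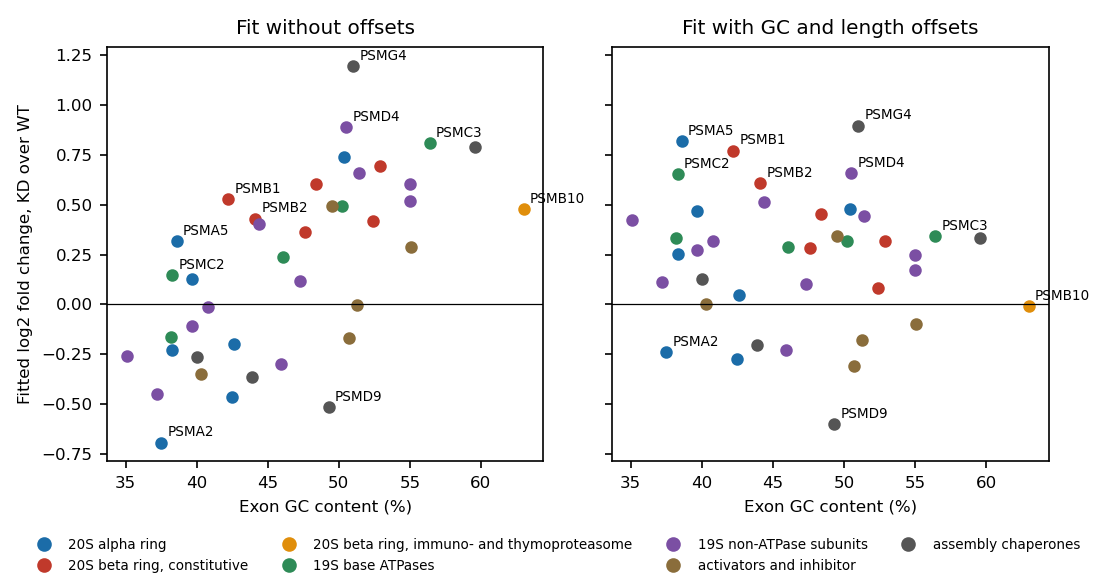
Fitted log2 fold change (KD over WT, vertical axis) against exon GC content in percent (horizontal axis) for the 40 members, in the fit without offsets (left) and with GC and length offsets (right), coloured by role. Values rise with GC content on the left (Pearson's r of 0.646) and not on the right (-0.109), and the 4 genes called with offsets, PSMA5, PSMB1, PSMB2 and PSMC2, have GC content between 38.3% and 44.1%.

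Genes that supply or serve the proteasome without being members gave no edgeR call in the fit without offsets. The 13 other subunits, assembly factors and associated proteins had a median of -0.03. SEM1, a small 19S subunit, stood at 53.3 and 49.1 CPM in WT and at 60.2 and 119.7 CPM in KD (0.79 ± 0.32 SE, edgeR adjusted p = 0.209), and edgeR called it higher with offsets, at an adjusted p of 0.1 after rounding. DESeq2 with its own GC and length offsets did not call SEM1 (adjusted p = 0.251). The deubiquitinase UCHL5 stood at 88.4 and 83.1 CPM in WT and at 60.5 and 37.9 CPM in KD (-0.77 ± 0.25 SE, edgeR adjusted p = 0.193). DESeq2 called UCHL5 lower without offsets (-0.79, adjusted p = 0.0828) and not with them (-0.26, adjusted p = 0.503). In edgeR its log2 fold change with offsets was -0.24 ± 0.11 SE (adjusted p = 0.198).

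In the p97 and NFE2L1 list, the median was 0.121 over 10 genes and none was called with or without offsets. NFE2L1 itself stood at 296 and 326 CPM in WT and at 343 and 461 CPM in KD (0.37 ± 0.21 SE), and at -0.02 with offsets. MAFG (0.51 ± 0.21 SE) and MAFK (0.40 ± 0.27 SE) had the largest differences of this list. The shuttling receptors, which carry ubiquitylated proteins to the proteasome, had a median of 0.038 over 6 genes, with RAD23B at -0.38 ± 0.17 SE and SQSTM1 at 0.28 ± 0.18 SE. Of the class I antigen presentation list 5 of 12 genes were measured, with a median of 0.093, and NLRC5 (0.69 ± 0.22 SE) and CALR (0.53 ± 0.24 SE) had the largest differences, neither called.

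mH2A1.1 peaks lay at the start of a minority of subunit genes, as they did for all genes tested. An mH2A1.1 peak fell within 500 bp of the annotated gene start of 15 of the 40 tested members (37.5%), against 46.9% of all genes tested. A common peak, meaning an mH2A1.1 peak that shares at least 1 bp with a total mH2A1 peak, lay at 9 members (22.5%), against 26.2% of all genes, and a total mH2A1 peak at 6 (15%), against 18.4%. Each ChIP-seq list comes from 1 library, so these counts have no replicate error. Peaks tile 3000 bp bins, which limits their position.

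The 9 genes with a common peak were PSMA4, PSMB5, PSMB6, PSMC1, PSMC3, PSMC5, PSMD3, PSMD8 and PSMG3. Of these, only PSMA4, PSMC3 and PSMC5 also had a total mH2A1 peak within 500 bp of the start. At the others both lists met elsewhere along the mH2A1.1 peak. At PSMB6, PSMD8 and PSMG3 the start lay inside domains of 102000, 243000 and 225000 bp that covered the whole gene. PSMC3 was covered whole by a peak of 15000 bp (chr11:47415001-47430000, GRCh38), and PSMB5 shared its domain of 27000 bp with its neighbour PSMB11, which was listed at 0. The other 6 starts with an mH2A1.1 peak were those of PSMA2, PSMB1, PSMD2, PSME1, PSME2 and PSME3. Those of PSMA2, PSMB1, PSMD2 and PSME1 were single bins of 3000 bp.

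Members with a common peak at the start had a median log2 fold change of 0.517, with 8 of 9 above 0, the 6 with an mH2A1.1 peak that is not common a median of 0.143, with 3 of 6 above 0, and the 25 with no mH2A1.1 peak there a median of 0.119. Over all genes the medians were 0.281, -0.03 and -0.12. With offsets these medians were 0.287, -0.139 and 0.318 for members and -0.002, 0.001 and 0.002 for all genes, so members with a common peak no longer had the highest median. The gene body was taken from 50 bp after the start to the end. There, mH2A1.1 peaks covered a median of 11.2% of the bases in members and 8.22% in all genes. No base was covered in 13 of the 40 tested members and in 27.9% of all genes. PSMG4, with no peak at its GENCODE start, had 62.6% of its body under peaks and a peak at its RefSeq start. PSMA6 also had a peak at its RefSeq starts only.

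**Figure D4:**
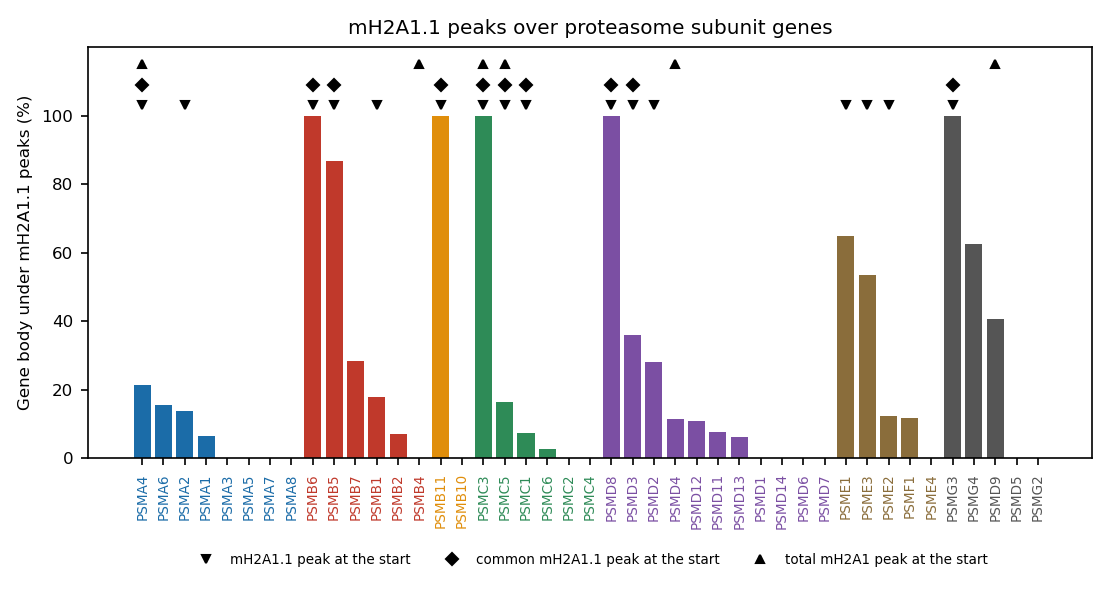
Percent of each gene body under mH2A1.1 peaks (bars, vertical axis) for all 43 members, coloured by role, with marks above the bars for an mH2A1.1 peak, a common peak or a total mH2A1 peak within 500 bp of the gene start. PSMB6, PSMB11, PSMC3, PSMD8 and PSMG3 are covered whole, and of the alpha genes none is covered by more than 21.3%.

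RefSeq promoters (GRCh38.p14), 250 bases before to 50 after a start, were held for 37 of the 43 members, in 45 windows because some genes have several starts. The ETS motif CCGGAAG was found on either strand in 15 windows (33.3%), against 17.0% of windows of tested genes and 10.3% of all 35116 windows. The antioxidant response element TGACNNNGC was found in 12 windows (26.7%), against 14.4% and 13.3%. The windows with it were those of PSMA4, PSMC4, PSMC5, PSMD1, PSMD3, PSMD5, PSMD9, PSMD12, PSME1, PSME2, PSME4 and PSMG2.

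CCAAT (35.6% of member windows, 34.9% of tested) and the SP1 motif GGGCGG (66.7% and 66.2%) were close to their frequency in tested genes. The motif of the respiratory factor NRF1, a different protein from NFE2L1, was in 15.6% and 9.96%, the YY1 motif AAGATGGCG in 6.67% and 3.47%, TATAAA in 11.1% and 6.21%, and the interferon response element in 13.3% and 2.94%. The last was found in PSMA4, PSMB4, PSMB10, PSME1, PSME2 and PSMG4. Windows of 1 gene overlap each other, and a match is a run of letters, not a measured site.

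The promoters of the members with the largest and the most negative fold change, and the most closely spaced divergent promoter, are printed 5′ to 3′ on the gene's strand, with the motifs searched in capitals.
PSMG4: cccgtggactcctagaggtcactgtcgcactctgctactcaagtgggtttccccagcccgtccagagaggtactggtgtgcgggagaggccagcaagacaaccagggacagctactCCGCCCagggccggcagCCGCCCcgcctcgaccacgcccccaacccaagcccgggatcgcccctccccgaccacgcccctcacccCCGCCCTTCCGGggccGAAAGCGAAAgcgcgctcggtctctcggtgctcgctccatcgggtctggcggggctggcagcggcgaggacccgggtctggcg
PSMA2: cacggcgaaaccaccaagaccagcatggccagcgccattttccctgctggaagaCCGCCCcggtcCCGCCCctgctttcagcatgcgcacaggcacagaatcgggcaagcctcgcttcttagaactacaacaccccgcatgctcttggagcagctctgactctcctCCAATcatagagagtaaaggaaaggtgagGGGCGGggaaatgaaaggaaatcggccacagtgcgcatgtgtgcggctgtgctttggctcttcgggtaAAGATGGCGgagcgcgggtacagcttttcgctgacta
PSMD13: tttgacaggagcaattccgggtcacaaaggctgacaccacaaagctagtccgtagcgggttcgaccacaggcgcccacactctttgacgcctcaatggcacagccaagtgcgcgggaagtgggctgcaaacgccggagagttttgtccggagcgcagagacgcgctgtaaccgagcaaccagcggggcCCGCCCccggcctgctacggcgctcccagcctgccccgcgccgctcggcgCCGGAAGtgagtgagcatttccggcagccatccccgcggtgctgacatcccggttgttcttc

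The PSMG4 window (chr6:3258697-3258996, plus strand) held an ETS match 44 bases before the start that overlaps an SP1 match, 2 more SP1 matches and an interferon response element 33 bases before the start. The PSMA2 window (chr7:42932125-42932424, minus strand) held a CCAAT box 84 bases before the start, a YY1 match from base 14 after it and 3 SP1 matches, and it lies inside the mH2A1.1 bin chr7:42930001-42933000. PSMA2 starts 191 bp from the divergent MRPL32, whose log2 fold change was 0.16 where that of PSMA2 was -0.69. The PSMD13 window (chr11:236726-237025, plus strand) held an ETS match 12 bases before the start and 1 SP1 match. PSMD13 starts 35 bp from SIRT3, and both genes overlapped WT, at 0.12 and 0.03. Of the 5 members with a divergent protein-coding partner within 1000 bp, PSMA1 and PSMA2 lay below WT without overlap, as did 32.4% of all genes, and PSMA7 and PSMB1 above it, as did 32.5%. The 5 partners overlapped WT. PSMA1 pairs with PDE3B at its GENCODE start only (chr11:14643635), and its RefSeq start lies far from there, at chr11:14520386.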

How the data were processed

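The members, gene lists and tests were chosen with earlier results of these data known. Gene counts were deposited without normalization. The authors aligned reads of a stranded total RNA kit to GRCh38 with STAR, filtered on mapping quality, removed duplicates and counted with htseq-count in its default mode. That mode counts reads on the gene's own strand, the kit marks strand in reverse, and the strand setting used is not given in the sources used here. The counts are not those of the opposite strand alone, since VIM and ENO1 held 22006 and 23746 counts in WT replicate 1 and their antisense RNAs 124 and 2. Whether both strands were counted is not known. This matters for members that share exon bases with a gene on the other strand, such as PSMC1 with NRDE2 (4667 bases). Without molecular identifiers, duplicate removal lowers the counts of abundant genes. Peaks, in deposited positions with a score of 0 throughout, were called by the authors with normR on single libraries.

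Of 23167 identifiers, 23061 matched GENCODE release 44, which gave symbols, exon lengths and GC content. The quasi-likelihood test of edgeR 4.0.16 (R 4.3.3; TMM factors, filterByExpr, Benjamini-Hochberg adjustment) covered genes of chromosomes 1 to 20, CPM are scaled to the TMM-adjusted totals, and DESeq2 1.42.0 was an alternative. Calls used the study's thresholds, 0.1 for the adjusted p and 1.5 for the fold change. SE is the log2 fold change over the square root of F. Offsets were lowess trends (span 0.3) on GC content and length. They were fitted for edgeR on genes that passed the filter with TMM-adjusted totals. For DESeq2 they were fitted on all genes with a count, with its size factors. The fits were also run on simulated data. Their spread was set and not taken from these libraries, so that run does not test the calls made here. Two-sided exact permutation of 2 against 2 libraries cannot go below p = 0.333. Genes named with values in each library were the catalytic beta subunits, called members, the 5 largest changes in each direction, the extremes of WT level and, per list, called genes or the 2 largest changes. Other named members complete the roles. The input and promoter capture Hi-C samples are not used here. Some listed genes are not reported here.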

Additional observations from a re-analysis of the deposited data

How the results depend on the processing

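The median log2 fold change of members kept its sign under every alternative, from 0.134 to 0.365 when single libraries were left out and from 0.235 to 0.303 otherwise. No member was called lower except without KD replicate 1. That fit, with KD replicate 2 as the lone KD library assumed to vary like WT, called 15 members higher and 5 lower. Leaving out each library gave 0 to 15 members higher and 0 to 5 lower, and 0 to 2316 genes higher and 0 to 2419 lower. Counts of members called higher were 3 with DESeq2, 7 with no low-count filter, 4 with GC and length offsets and 6 with DESeq2 and its own offsets. RLE factors, the whole table and DESeq2 on the whole table called 0. Genes called higher and lower were 431 and 447 with DESeq2, 1025 and 1118 with no low-count filter, 244 and 365 with offsets, and, in fits added after the data were seen, 410 and 535 with DESeq2 on the whole table and 209 and 220 with DESeq2 and offsets. The cause was not tested.

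The same replicate numbers share only a number in the labels, and with 2 pairs their within-group deviations correlated at 0.295 across genes. With the replicate block 7 members were called higher, with 1069 and 1131 genes higher and lower, and with the replicate block and offsets 6 members, with 377 and 477 genes.

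Log2 fold changes changed sign with offsets in edgeR, in edgeR with the replicate block and in DESeq2, in this order, for PSMA3 (0.252, 0.255 and 0.236), PSMA4 (0.048, 0.055 and 0.039), PSMC6 (0.335, 0.341 and 0.325), PSMD1 (0.272, 0.274 and 0.26), PSMD12 (0.112, 0.114 and 0.099), PSMD14 (0.425, 0.429 and 0.422), PSMD5 (0.126, 0.125 and 0.109), PSMD6 (0.318, 0.334 and 0.314) and PSME1 (-0.099, -0.101 and -0.086). PSMB10 changed sign in both edgeR fits (-0.007 and -0.015) and PSME4 in edgeR with offsets alone (0.001). PSME2 was at 0.002 with RLE factors. When libraries were left out, PSMC6 ranged from -0.381 to 0.01, PSMD6 from -0.095 to 0.059, PSME2 from -0.105 to 0.077 and PSME3 from -0.484 to 0.077, in each case lowest without KD replicate 1 and highest without KD replicate 2.

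After offsets, members below WT in both KD libraries numbered 6 in place of 11. Per kb of the longest transcript the median WT level was 44.4 and the ratio of PSMB10 to PSMB7 0.02, against 0.0218. Members with an mH2A1.1 peak at the start numbered 15 with the start base alone, with 1000 bp on each side and with at least 500 bp of overlap, 14 of 34 at RefSeq starts, 9 with common peaks and 3 with the stretches shared by both peak lists, and gene body cover was 0.0% with common peaks. Depth limits PSMB10, PSMA2 and PSMD9 most, with 7 to 10 counts in KD replicate 2.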
